A study of Mus musculus with 6 samples.

Results

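The Kruppel-like factors are a family of zinc finger transcription factors, and 10 of their genes (Klf2, Klf3, Klf4, Klf5, Klf6, Klf7, Klf9, Klf10, Klf12 and Klf13) are described here in mouse embryonic stem (mES) cells and in epiblast stem cells (EpiSC). Their probes were taken by gene name from the scanner files, whatever their values, which gave 19 of the 41174 probes that are not controls. Of these 10 genes, 2 had 1 probe, 7 had 2 probes and 1 had 3 probes, and each probe is given on its own because probes of 1 gene can differ.

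The blastocyst's inner cell mass gives rise to ES cell lines, and the epiblast of the implanted embryo to EpiSC lines. The mES group held the lines ESF122 (replicate 1), ESF175/1 (replicate 2) and a line that its title calls ESF58/2 and its source name ESF58/1 (replicate 3). The EpiSC group held EpiSC-5 (replicate 1), EpiSC-7 at passage 20 (replicate 2) and EpiSC-7 at passage 25 (replicate 3), so its 3 samples came from 2 lines. All cultures grew on irradiated mouse embryonic fibroblasts in medium with serum replacement, to which LIF was added for mES cells and FGF2 for EpiSC, so cell type and factor cannot be told apart. Genotype, strain and transgenes were not stated in the labels.

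Kruppel-like factors share a run of C-terminal zinc fingers that bind CACCC boxes and related GC-rich sequences, while their N-terminal parts differ and recruit activators or repressors. In mouse ES cells Klf2, Klf4 and Klf5 are known as partly redundant supports of self-renewal. LIF acting through Stat3 is known to raise Klf4 and Klf5, and forced Klf4 is known to help return EpiSC to an ES cell-like state. Klf3, Klf8 and Klf12 are known as repressors that bind CtBP, and Klf9, Klf10 and Klf13 as repressors that bind Sin3a.

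The promoters of the members with a probe that fell in EpiSC are shown first, because the family's binding sites and sites of its known regulators can be read in them. The RefSeq table of the assembly GRCm38.p6 held a promoter for 8 of the 10 members, among them Klf2, Klf3, Klf4 and Klf9. Each line gives the 250 bases before the annotated start, read 5′ to 3′ on the gene's own strand. The windows are chr8:72318812-72319061 (+ strand) for Klf2, chr5:64803271-64803520 (+ strand) for Klf3, chr4:55532476-55532725 (- strand) for Klf4 and chr19:23140976-23141225 (+ strand) for Klf9. Capitals mark CACCC boxes (CACCC or GGGTG), GC boxes (GGGCGG or CCGCCC), in Klf2 the MEF2 motif and in Klf9 the STAT motif (TTCNNNGAA). All motifs were searched on both strands, and sites of the CACCC and GC boxes may share bases.
Klf2: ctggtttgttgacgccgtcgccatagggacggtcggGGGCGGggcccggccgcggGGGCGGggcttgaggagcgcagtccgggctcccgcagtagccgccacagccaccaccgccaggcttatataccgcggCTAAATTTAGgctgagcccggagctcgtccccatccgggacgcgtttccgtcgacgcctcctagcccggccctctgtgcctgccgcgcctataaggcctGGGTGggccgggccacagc
Klf3: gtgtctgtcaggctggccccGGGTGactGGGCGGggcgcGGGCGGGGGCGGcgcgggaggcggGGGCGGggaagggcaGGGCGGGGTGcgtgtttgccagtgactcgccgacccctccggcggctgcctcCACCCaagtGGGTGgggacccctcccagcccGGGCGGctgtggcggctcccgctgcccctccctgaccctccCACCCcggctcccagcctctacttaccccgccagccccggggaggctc
Klf4: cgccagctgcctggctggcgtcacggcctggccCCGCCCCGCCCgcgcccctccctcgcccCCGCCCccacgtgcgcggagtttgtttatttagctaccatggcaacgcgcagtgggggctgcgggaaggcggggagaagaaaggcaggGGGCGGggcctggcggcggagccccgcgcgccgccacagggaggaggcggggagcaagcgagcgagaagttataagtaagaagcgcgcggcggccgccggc
Klf9: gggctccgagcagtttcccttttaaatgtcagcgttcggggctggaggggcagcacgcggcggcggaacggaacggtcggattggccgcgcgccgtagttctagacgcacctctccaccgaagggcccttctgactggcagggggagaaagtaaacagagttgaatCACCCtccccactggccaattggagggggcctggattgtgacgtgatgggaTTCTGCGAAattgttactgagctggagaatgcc

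The Klf3 window held 5 CACCC boxes and 6 GC boxes, the Klf2 window 1 CACCC box and 2 GC boxes, the Klf4 window 4 GC boxes and the Klf9 window 1 CACCC box. Members with no probe that fell held such boxes too. Klf7 had 3 CACCC boxes and 1 GC box, Klf13 had 1 CACCC box and 3 GC boxes, Klf12 had 1 CACCC box and Klf6 had 1 GC box. Over 32851 promoters of this length, 52.0% held at least 1 CACCC box and 32.7% at least 1 GC box. A MEF2 motif, the site of factors that act below the kinase Erk5 on Klf2 in endothelium, began 118 bases before the Klf2 start, and 0.508% of promoters held one. Klf9 held a STAT motif 33 bases before its start, which 7.02% of promoters did. No STAT motif lay in the windows of Klf2, Klf3, Klf4, Klf6, Klf7, Klf12 or Klf13, and Klf5 had no promoter to search. The matches describe letters in the windows and show no binding.

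Levels are the log2 processed signal relative to the 75th percentile of the array, changes are EpiSC minus mES on the same log2 scale with their standard error, and a probe passed at a Benjamini-Hochberg adjusted p under 0.05 in limma over all probes tested. Levels of different probes are not set against each other, since probes differ in how they bind. Of the 19 member probes, 18 entered the test and 7 passed (38.9%), against 26.0% of all 29553 probes tested. Lower in EpiSC were 6 of them (33.3%, against 14.3% of all probes), and 1 was higher (5.56%, against 11.7%). The values of the groups did not overlap for 11 of the 18 (61.1%), against 48.0% of all probes. The median change of the 18 was -0.68, beside -0.11 for all probes tested. It was -1.07 without mES replicate 3 and -1.31 among the arrays at position 4 of their slides, and all 19 entered both fits. These were the lowest medians of the alternative settings. The others lay between -0.86 (without EpiSC replicate 3) and -0.56 (without mES replicate 1), with -0.72 when dim probes were not filtered and all 19 entered. Klf2, Klf3, Klf4, Klf5 and Klf9 each had a probe that fell, Klf7 had a probe that rose, and Klf6, Klf10, Klf12 and Klf13 had none that passed. In RNA of whole cultures, a lower level in each cell and fewer cells that express a gene cannot be told apart.

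**Figure D1:**
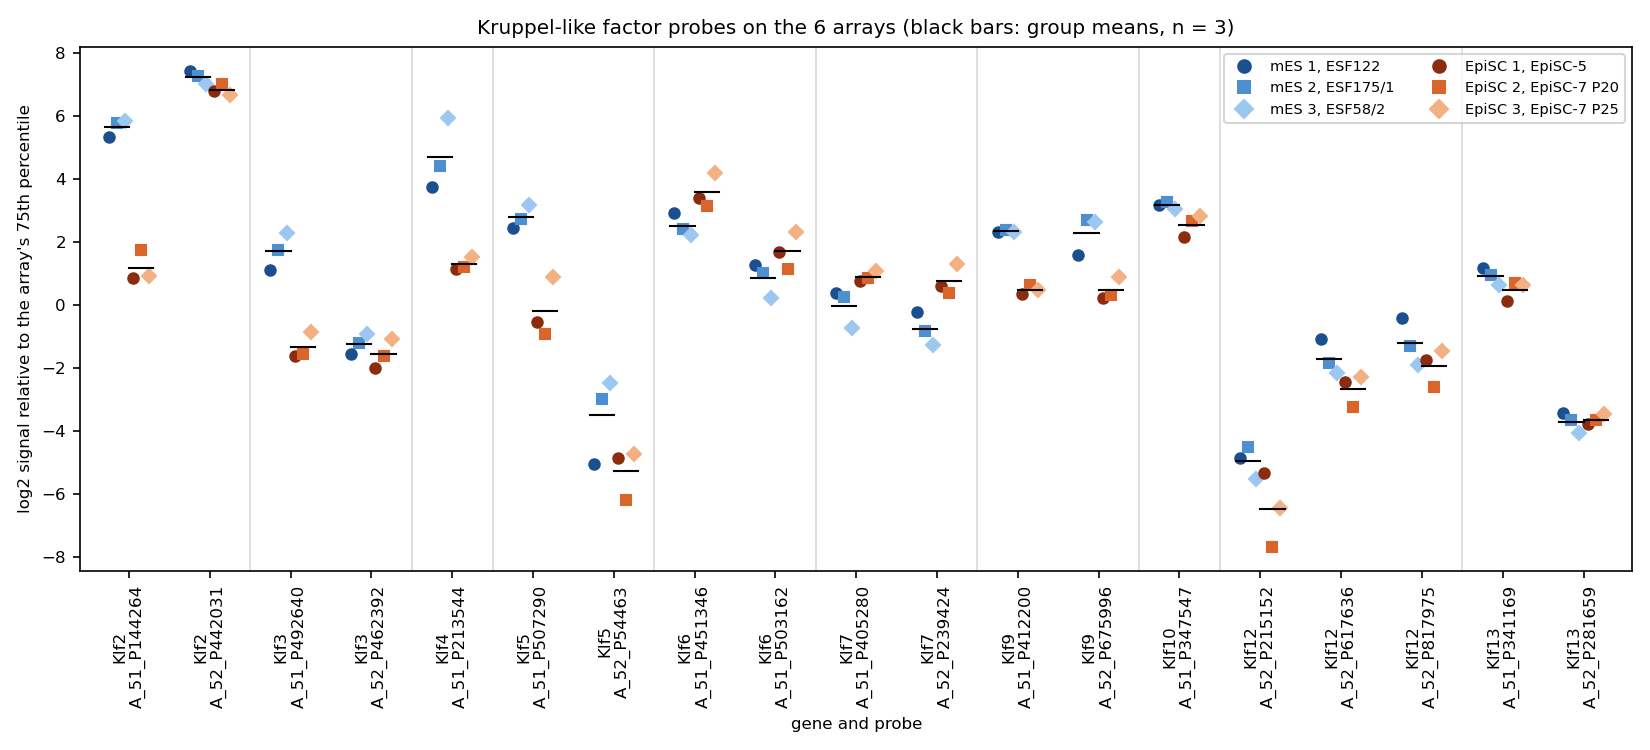
Log2 signal relative to the 75th percentile of the array (vertical axis) of all 19 Kruppel-like factor probes (horizontal axis), with 1 point for each of the 6 arrays (blue mES, orange EpiSC) and a black bar at each group mean. The mES and EpiSC points lie far apart for 1 Klf2 probe (A_51_P144264) and overlap for the other, and the Klf4 points spread more within mES than within EpiSC.

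The arrays and cultures were checked before the members were read. Between 66.27% and 75.43% of probes were well above background on an array, and 3 arrays per group limit the precision. The mES marker Zfp42 fell by 10.55 ± 0.41 (adjusted p = 6.72e-05), and Dppa3 and Pecam1 also fell, while Cer1, Fgf5, T and Otx2 rose in EpiSC. Pou5f1, Sox2 and Nanog, which both cell types express, did not pass, and the markers matched the labels in both groups. Each of the 4 slides, which were also the 4 scans, held 1 group only, so slide and group cannot be told apart. The position on the slide held both groups, with replicate 3 of each group at position 1 and the other arrays at position 4. Signal of embryonic fibroblast markers, read as a sign of feeder RNA, was present in every culture, and its source was not tested. All 15 embryonic fibroblast markers were measured, 0 of 15 passed the test in limma (0 also at an unadjusted p under 0.05) and none was missing from the array, and their summed relative signal was 84.1, 16.8 and 103 in mES replicates 1 to 3 and 119, 73.0 and 11.4 in EpiSC replicates 1 to 3. The lowest array of each group, mES replicate 2 and EpiSC replicate 3, was therefore left out together as an alternative chosen after the data were seen, which leaves 2 samples per group.

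Klf2, a factor of ES cell self-renewal that is also known for quiescence of endothelium and T cells, showed the largest difference among the members by 1 of its probes. That probe (A_51_P144264) read 5.35, 5.78 and 5.83 in mES replicates 1 to 3 and 0.87, 1.74 and 0.93 in EpiSC replicates 1 to 3. Every mES line was high, every EpiSC culture was low, and the lowest mES value was far above the highest EpiSC value. The level fell by 4.47 ± 0.29 (22.2-fold, adjusted p = 0.00034 in limma). The change was -4.26 at position 4 and -4.90 at position 1, and it was -4.29 (adjusted p = 0.0127) with both arrays of low fibroblast signal left out.

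The other Klf2 probe (A_52_P442031) carries the same RefSeq accession in the scanner files and did not show this. It read 7.44, 7.27 and 7.01 in mES and 6.80, 7.03 and 6.67 in EpiSC, and EpiSC replicate 2 lay above mES replicate 3, so the groups overlapped. Its change was -0.40 ± 0.20 (95% interval -0.87 to 0.06, adjusted p = 0.166). The interval leaves out a change as large as that of the first probe, whose own interval ran from -5.17 to -3.78. None of its spots was marked saturated, but neither was any other spot on the 6 arrays, so the mark does not tell this probe apart. Its linear signal was high, from 79645 to 108820, and whether differences are compressed at such signal was not tested. The changes of the pair differed by 4.07. An exact permutation test of that difference over the 6 arrays, two-sided, gave p = 0.1, the smallest that 3 against 3 can give, and 0.16 after adjustment over the 8 genes with a pair of tested probes.

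Klf4, one of the factors used to reprogram somatic cells to pluripotency, had a single probe (A_51_P213544). It read 3.76, 4.42 and 5.93 in the mES lines ESF122, ESF175/1 and ESF58/2 and 1.15, 1.19 and 1.51 in the EpiSC replicates. The groups did not overlap, and the EpiSC values lay close together while the mES lines spanned 2.17. Klf4 fell by 3.42 ± 0.53 (10.7-fold, adjusted p = 0.00635 in limma), with changes of -2.92 at position 4 and -4.42 at position 1. With both arrays of low fibroblast signal left out, the change was -3.68 and did not pass (adjusted p = 0.0549).

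Klf5, known for its role in the inner cell mass and trophectoderm as well as in intestinal epithelium, fell by the brighter of its probes (A_51_P507290). The values were 2.46, 2.73 and 3.18 in mES and -0.55, -0.92 and 0.88 in EpiSC. All mES lines were above all EpiSC cultures, and EpiSC-7 at passage 25 was the highest EpiSC culture. Klf5 fell by 2.98 ± 0.48 (7.91-fold, adjusted p = 0.00706), with changes of -3.32 at position 4 and -2.30 at position 1. A second Klf5 probe (A_52_P54463), placed on a different cDNA record, was dim, with readings of -5.05, -2.98 and -2.47 in mES and -4.86, -6.20 and -4.75 in EpiSC, and was above background in 2 of 3 EpiSC arrays. Its change of -1.77 ± 0.73 did not pass (adjusted p = 0.116), and the line ESF122 lay below the highest EpiSC values. Leaving out that line, mES replicate 1, gave -2.55 and an adjusted p of 0.0232.

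Among the CtBP-binding repressors, Klf3, which is known in blood and fat cells, fell by 1 of its probes. Probe A_51_P492640 read 1.12, 1.75 and 2.28 in mES and -1.63, -1.54 and -0.87 in EpiSC. Every mES value was above the array's 75th percentile and every EpiSC value below it, with no overlap. Klf3 fell by 3.07 ± 0.35 (8.38-fold, adjusted p = 0.00256), with changes of -3.02 at position 4 and -3.15 at position 1. The second Klf3 probe (A_52_P462392), with the same RefSeq accession, read -1.56, -1.21 and -0.93 in mES and -1.99, -1.61 and -1.08 in EpiSC. These values overlapped, and the change was -0.32 ± 0.29 (95% interval -1.02 to 0.37, adjusted p = 0.432). The changes of the Klf3 pair differed by 2.74 (exact permutation p = 0.1, adjusted 0.16).

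Klf12, a repressor of the AP-2 alpha gene, was measured by 3 probes and did not pass by any. Probe A_52_P617636 read -1.09, -1.85 and -2.16 in mES and -2.45, -3.23 and -2.29 in EpiSC, which did not overlap by a narrow margin, and changed by -0.95 ± 0.36 (adjusted p = 0.0972). Probe A_52_P817975 read -0.42, -1.31 and -1.90 in mES and -1.74, -2.61 and -1.45 in EpiSC, with overlap, and changed by -0.72 ± 0.45 (adjusted p = 0.272). For this last probe the direction depended on the position, with -1.31 at position 4 and 0.45 at position 1. The third (A_52_P215152) was above background on 2 mES arrays and 1 EpiSC array only and did not enter the test.

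Klf9, a factor induced by steroid and thyroid hormones, was the member whose tested probes gave the most similar changes. Probe A_51_P412200 read 2.32, 2.39 and 2.32 in mES and 0.35, 0.63 and 0.49 in EpiSC. The mES lines lay within 0.0701 of each other, the smallest spread of any tested member probe in mES. Klf9 fell by 1.85 ± 0.16 by this probe (3.62-fold, adjusted p = 0.00103), and it passed in all 21 alternative settings. Probe A_52_P675996 read 1.57, 2.69 and 2.64 in mES and 0.21, 0.32 and 0.88 in EpiSC, with ESF122 low among the mES lines. It fell by 1.83 ± 0.36 (3.56-fold, adjusted p = 0.0136), a change 0.02 away from that of the first probe. This second call was lost without EpiSC replicate 1 (-1.70, adjusted p = 0.0505), among the arrays at position 4 only (-1.87, adjusted p = 0.057) and in the fit that left out both arrays of low fibroblast signal (-1.84, adjusted p = 0.0682).

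Klf13, known in T cells and the heart, did not pass by either probe. Probe A_51_P341169 read 1.17, 0.96 and 0.64 in mES and 0.11, 0.69 and 0.65 in EpiSC, a change of -0.44 ± 0.24 (adjusted p = 0.212). Probe A_52_P281659 read -3.45, -3.64 and -4.05 in mES and -3.78, -3.66 and -3.48 in EpiSC, a change of 0.07 ± 0.22 (95% interval -0.44 to 0.59, adjusted p = 0.818). The groups overlapped for both, and the sign of the second turned in 4 of the alternative settings. Klf10, known as a gene induced by TGF-beta, read 3.17, 3.27 and 3.06 in mES and 2.15, 2.65 and 2.81 in EpiSC by its only probe (A_51_P347547). All EpiSC values were below all mES values, but the change of -0.63 ± 0.22 did not pass (adjusted p = 0.077).

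Klf6 and Klf7 are close relatives known as activators, Klf6 as a tumour suppressor and injury-response gene and Klf7 in axon growth, and all of their probes had higher group means in EpiSC. Klf7 probe A_52_P239424, placed on a cDNA record, read -0.23, -0.82 and -1.28 in mES and 0.61, 0.39 and 1.29 in EpiSC, with no overlap. It rose by 1.54 ± 0.35 (2.91-fold, adjusted p = 0.0219), by 1.03 at position 4 and by 2.57 at position 1. The call was lost without mES replicate 2, without EpiSC replicate 1 and without EpiSC replicate 3 (adjusted p up to 0.067), among the arrays at position 4 only, and with both arrays of low fibroblast signal left out (1.25, adjusted p = 0.139). Klf7 probe A_51_P405280, placed on the RefSeq transcript, read 0.37, 0.24 and -0.73 in mES and 0.75, 0.84 and 1.08 in EpiSC. These did not overlap either, and the change of 0.93 ± 0.32 did not pass (adjusted p = 0.0723).

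Klf6 probe A_51_P451346 read 2.91, 2.40 and 2.22 in mES and 3.41, 3.14 and 4.20 in EpiSC. All EpiSC values were above all mES values, and the change of 1.08 ± 0.33 lay just outside the threshold (adjusted p = 0.0546) and inside it in 6 of 21 alternative settings. These include the slide as a random block, where gained calls are no evidence. The probe passed in 0 of the 6 fits that left out an array (limma, adjusted p from 0.0509 to 0.128). The second Klf6 probe (A_51_P503162), with the same accession, read 1.28, 1.02 and 0.23 in mES and 1.69, 1.14 and 2.31 in EpiSC, with overlap, and changed by 0.87 ± 0.39 (adjusted p = 0.139). EpiSC-7 at passage 25 and the line ESF58/2, both at position 1, were the ends of the range for both Klf6 probes. The difference between the groups was accordingly larger at position 1 (1.99 and 2.08) than at position 4 (0.62 and 0.27).

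**Figure D2:**
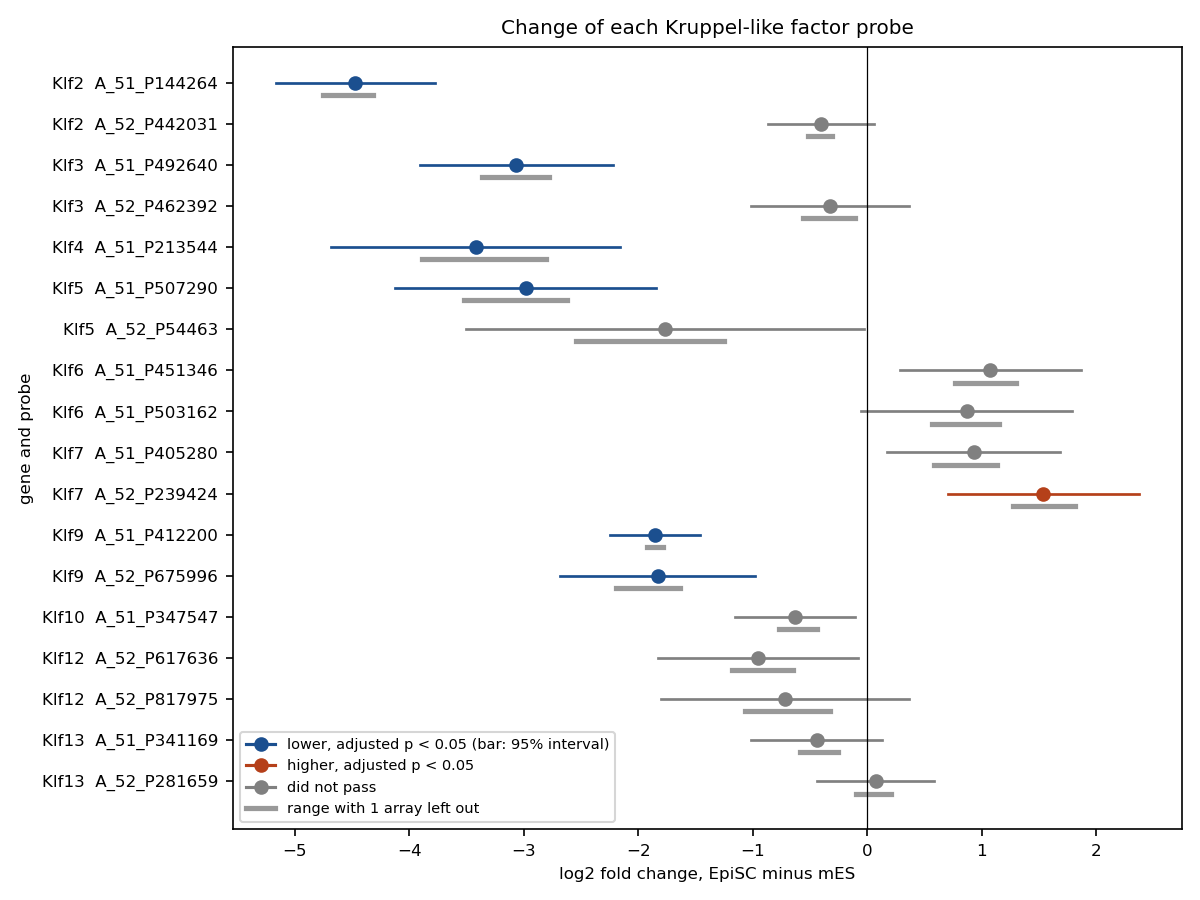
Log2 fold change, EpiSC minus mES, of the 18 tested Kruppel-like factor probes (points) with limma's 95% interval (thin bars) and the range of the change when each array was left out in turn (thick grey bars). The 6 blue probes passed as lower and the 1 orange-brown probe as higher, and only the paired probes of Klf2 and Klf3 have intervals that lie wholly apart.

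Across the 8 genes with a pair of tested probes, the difference between the changes was 4.07 for Klf2, 2.74 for Klf3, 1.21 for Klf5, 0.61 for Klf7, 0.51 for Klf13, 0.23 for Klf12, 0.21 for Klf6 and 0.02 for Klf9. The exact permutation p was 0.1 for the 5 largest of these, the smallest the design allows, and 0.2, 0.3 and 1 for Klf12, Klf6 and Klf9. The probes of a pair shared 1 accession for Klf2, Klf3, Klf6 and Klf9, so sharing an accession went with both the widest and the narrowest differences. The 4 other pairs had a probe placed on a separate cDNA record. Where in the transcript each probe lies was not analysed here.

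The mES lines themselves differed in these genes, which is given as a description chosen after the values were seen. ESF122 was the lowest and ESF58/2 the highest mES line for 6 of 18 member probes (33.3%), against 15.4% of all probes with 3 mES values, and these were both Klf3 probes, both Klf5 probes, Klf4 and the Klf2 probe that fell. The opposite order, ESF122 highest and ESF58/2 lowest, held for 9 of 18, against 23.6%, and these were both probes of Klf6, Klf7, Klf13 and Klf12 and the Klf2 probe that did not pass. The ES cell target genes described below held the first order for 8 of the 12 with 3 mES values and the opposite order for 0. Nr5a2, a nuclear receptor that can stand in for Oct4 in reprogramming, differed by 3.64 between ESF58/2 and ESF122, Tbx3, a T-box factor, by 3.65, and Nanog by 1.90, beside 2.17 for Klf4. The fibroblast markers were lowest in ESF175/1 (16.8, beside 84.1 and 103). Both orders place that line in the middle by definition, so they cannot show a part of feeder cells, which was not tested. ESF58/2 was the only mES array at position 1, and position and line cannot be told apart there.

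**Figure D3:**
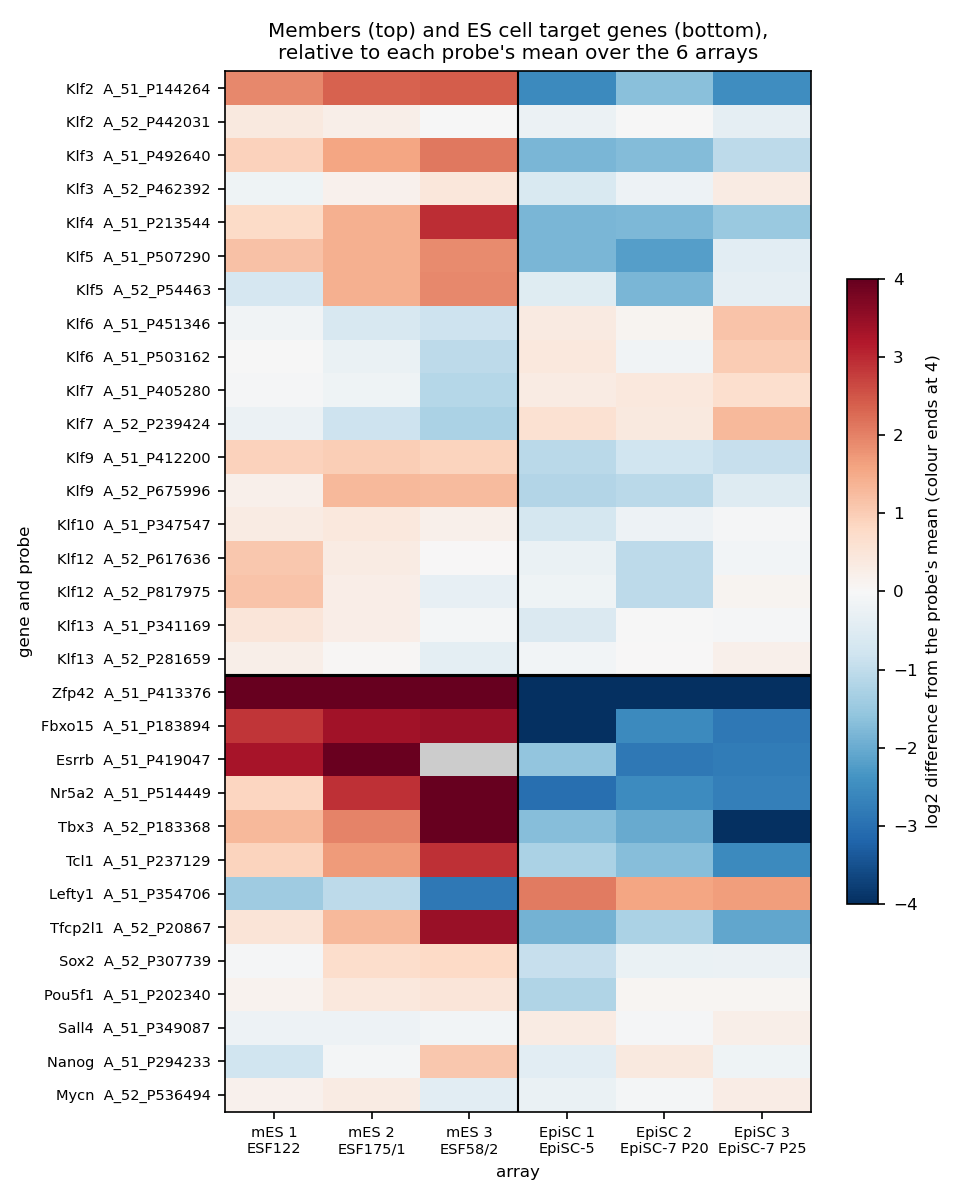
Difference of each array from the probe's mean over the 6 arrays (colour, log2, ending at 4 in either direction; grey marks a missing value) for the 18 tested Kruppel-like factor probes (top) and 13 ES cell target genes (bottom). Klf4, Klf3, Klf5, Nr5a2, Tbx3, Tcl1 and Tfcp2l1 are all highest in mES replicate 3 (ESF58/2), the array in which Klf6, Klf7 and Lefty1 are lowest.

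The 2 passages of EpiSC-7 also differed in some members, with 1 array each and no test. At least 2-fold apart were 5 of 18 member probes (27.8%), against 10.5% of all probes, and all 5 were higher at passage 25, a direction that 3.72% of all probes took. Both Klf5 probes were higher by 1.79 and 1.45, both Klf6 probes by 1.06 and 1.16, and a Klf12 probe (A_52_P817975) by 1.16. Fibroblast markers summed to 73.0 at passage 20 and 11.4 at passage 25, and the arrays lay at positions 4 and 1. The part of either in these differences was not tested.

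The remaining members of the family and their relatives were read from lists written with earlier results of these data known. Each gene stands there by its brightest tested probe, and 26.3% of 20689 genes passed (11.4% higher, 14.9% lower). Of all tested probes, 41.3% had an unadjusted p under 0.05 in limma, the share to set beside the unadjusted counts of these lists. Of the 7 other Kruppel-like factor genes, 6 were tested, 0 were higher and 1 was lower in limma (0 and 2 at an unadjusted p under 0.05), with a median change of -0.67 beside -0.13 for all genes. The lower one was Klf8, a CtBP-binding relative of Klf3, at 0.58, 1.20 and 1.29 in mES and -1.75, -0.82 and -1.43 in EpiSC. It fell by 2.36 ± 0.31 (adjusted p = 0.0039), and its other probe fell by 1.45 ± 0.37 (adjusted p = 0.0311). It was not called when the arrays with the least fibroblast marker signal were left out. Klf1, Klf11, Klf15, Klf16 and Klf17 did not pass, and Klf14 was not tested.

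The Sp factors bind the same GC-rich sites through related zinc fingers, and of the 8 tested, 2 were higher and 2 lower in EpiSC. Sp5, a Wnt target of the primitive streak, read -1.73, -1.73 and -2.29 in mES and 1.18, 1.22 and 3.23 in EpiSC and rose by 3.79 ± 0.56 (13.9-fold, adjusted p = 0.00562). Sp8, known in limb and forebrain development, rose by 3.50 ± 0.48 (adjusted p = 0.00435) and was above background on 2 of 3 mES arrays. Sp6 fell by 1.57 ± 0.36 (adjusted p = 0.0237) and Sp2 by 0.96 ± 0.20 (adjusted p = 0.0159). The Sp6 call was lost without mES replicate 1 or 2 or EpiSC replicate 1 or 3, and the Sp2 call without EpiSC replicate 1. The broadly expressed Sp1 and Sp3, at changes of -0.24 ± 0.18 and -0.42 ± 0.18, did not pass. Sp4 had a second probe that rose, by 1.03 ± 0.30 (adjusted p = 0.0467), while its brightest did not pass.

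Of 13 co-repressors, co-activators and ubiquitin ligases, 1 was higher and 3 were lower, with a median of -0.45. Ctbp1, the co-repressor bound by Klf3, Klf8 and Klf12, rose by 1.01 ± 0.17 (adjusted p = 0.00812). It read between 2.32 and 2.46 in mES and between 3.24 and 3.55 in EpiSC. Of its partners, Klf8 fell by both probes and Klf3 by 1 of its probes, while Klf12 did not pass. Ctbp2, the other CtBP gene listed, changed by -0.61 ± 0.21 and -0.63 ± 0.23 by its probes and did not pass (adjusted p = 0.0715 and 0.0866). Kat2b, the acetyltransferase PCAF, fell by 2.22 ± 0.29 (adjusted p = 0.00374), Hdac1, a histone deacetylase, by 0.78 ± 0.16 (adjusted p = 0.016), and Sin3a, the co-repressor scaffold bound by Klf9, Klf10 and Klf13, by 0.72 ± 0.18 (adjusted p = 0.0291). The Hdac1 call was lost without mES replicate 1 or 2 or EpiSC replicate 1, and the Sin3a call in 5 of the 6 fits that left out an array and when arrays were scaled to their medians. Among the 9 others, the ligase Wwp1, which marks Klf2 and Klf5 for degradation, changed by -0.73 ± 0.23 (adjusted p = 0.0621) by its brightest probe. Its other probes changed by -0.72, -0.48 and 0.16 and did not pass. Sin3b did not pass by its brightest probe (-0.51 ± 0.18, adjusted p = 0.0863), while a second probe rose by 0.71 ± 0.17 (adjusted p = 0.026).

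Genes upstream of the family gave 5 higher and 1 lower of 17. The TGF-beta receptor Tgfbr1 rose by 1.71 ± 0.19 (adjusted p = 0.00207), its ligand Tgfb1 by 1.34 ± 0.22 (adjusted p = 0.00754) and the MADS-box factor Mef2a by 1.15 ± 0.16 (adjusted p = 0.00462). A second Tgfbr1 probe did not pass, with a change of 0.47 ± 0.32 (adjusted p = 0.303), nor did 1 of the 3 Mef2a probes, with a change of 0.42 ± 0.25 (adjusted p = 0.246). Socs3, a feedback inhibitor induced by LIF through Stat3, read 4.27, 4.88 and 4.93 in mES and 3.41, 3.75 and 3.37 in EpiSC and fell by 1.18 ± 0.24 (adjusted p = 0.0157). The Socs3 call was lost without mES replicate 2, EpiSC replicate 1 or EpiSC replicate 3. Stat3 itself changed by -0.22 ± 0.20 (adjusted p = 0.431) and the LIF receptor Lifr by -0.61 ± 0.19 (adjusted p = 0.0583), neither of which passed.

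ES cell genes known to be bound by Klf2, Klf4 or Klf5 held the largest falls of any of these lists, with 7 of 13 lower, 1 higher and a median change of -3.50. Zfp42 (Rex1), a zinc finger marker of naive cells, fell by 10.55, Fbxo15 by 6.43 ± 0.45 (adjusted p = 0.000444) and the orphan nuclear receptor Esrrb fell by 6.04 ± 0.47 (adjusted p = 0.00127), the last with a value on 2 of 3 mES arrays. A second Esrrb probe fell by 1.66 ± 0.27 (adjusted p = 0.00738), so the size of the Esrrb fall depended on the probe. Lefty1, an inhibitor of Nodal, rose by 3.56 ± 0.47 (adjusted p = 0.00384). Nanog, Pou5f1, Sox2, Sall4 and Mycn did not pass. The list was written with the cell types' markers known and is not independent evidence of its direction.

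Targets known from other tissues gave 0 higher and 2 lower of 9 in limma (2 and 2 at an unadjusted p under 0.05). Cdkn1a, the cell cycle inhibitor p21 and a Klf4 target in epithelia, read 1.78, 1.15 and 1.36 in mES and -0.02, 0.23 and -0.76 in EpiSC and fell by 1.61 ± 0.31 (adjusted p = 0.0129). Nos3, the endothelial nitric oxide synthase and a Klf2 target in vessels, fell by 1.43 ± 0.41 (adjusted p = 0.046), and its call was lost in 4 of the 6 fits that left out an array. S1pr1 and Thbd, the other vascular Klf2 targets on the list, did not pass.

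Immediate early genes were read beside Klf6 and Klf10, which serum and stress are known to induce. Of 13, 6 were higher and 0 lower in EpiSC in limma (8 and 0 at an unadjusted p under 0.05). That unadjusted level was met by 41.3% of all tested probes, in either direction. Egr3 rose by 3.99 ± 0.74 (adjusted p = 0.0115, above background on 1 of 3 mES arrays), Jun by 2.68 ± 0.35 (adjusted p = 0.00371) and Atf3 by 2.29 ± 0.47 (adjusted p = 0.0156). A second Egr3 probe went the other way and did not pass, with a change of -1.01 ± 0.46 (adjusted p = 0.147). The Atf3 call was lost without EpiSC replicate 1 or 3. Among markers of primitive and visceral endoderm, 3 of 7 tested were higher in EpiSC (Sox17, Gata6 and Sox7) and 0 lower in limma (4 and 0 at an unadjusted p under 0.05). Apoa1 changed by 2.38, Amn by -0.68, Gata4 by -0.26 and Hnf4a by -0.22, none of which passed. The Gata6 call was lost without mES replicate 2 or EpiSC replicate 3, a further Gata6 probe changed by 0.03 ± 0.29 (adjusted p = 0.944), and Sox7 passed in 1 of the 6 fits that left out an array. The endoderm markers had a summed relative signal of 0.818 to 1.00 in mES and of 17.9, 2.71 and 5.47 in EpiSC replicates 1 to 3. Of the 9 listed endoderm markers, 1 (Ttr) was above background on no array. The part of endoderm or feeder cells in the Klf values was not tested. With both arrays of low fibroblast signal left out, 6.82% of all probes and 4 member probes, all lower, passed. Among the lists, that fit called 1 higher and 3 lower ES cell targets, 3 higher Sp factors, 2 higher immediate early genes, 1 higher upstream gene and 1 lower cofactor. It called 0 of 6 other Kruppel-like factors, 0 of 9 other targets and 0 of 7 endoderm markers in limma, where 1, 2 and 3 had an unadjusted p under 0.05. The share of all probes at that unadjusted level is not given here for that fit. Of the list genes named here as changed, Sp5, Sp8, Kat2b, Tgfbr1, Zfp42, Fbxo15, Esrrb, Lefty1 and Jun passed in every alternative setting in which they were tested. The calls of Ctbp1, Cdkn1a, Egr3, Sp2, Hdac1, Sin3a, Socs3, Nos3, Sox17, Gata6 and the EpiSC marker Otx2 were lost both in that fit and among the arrays at position 4. Those of Klf8, Sp6, Tgfb1, Mef2a, Atf3, Sox7 and the EpiSC marker Fgf5 were lost in that fit but not at position 4.

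**Figure D4:**
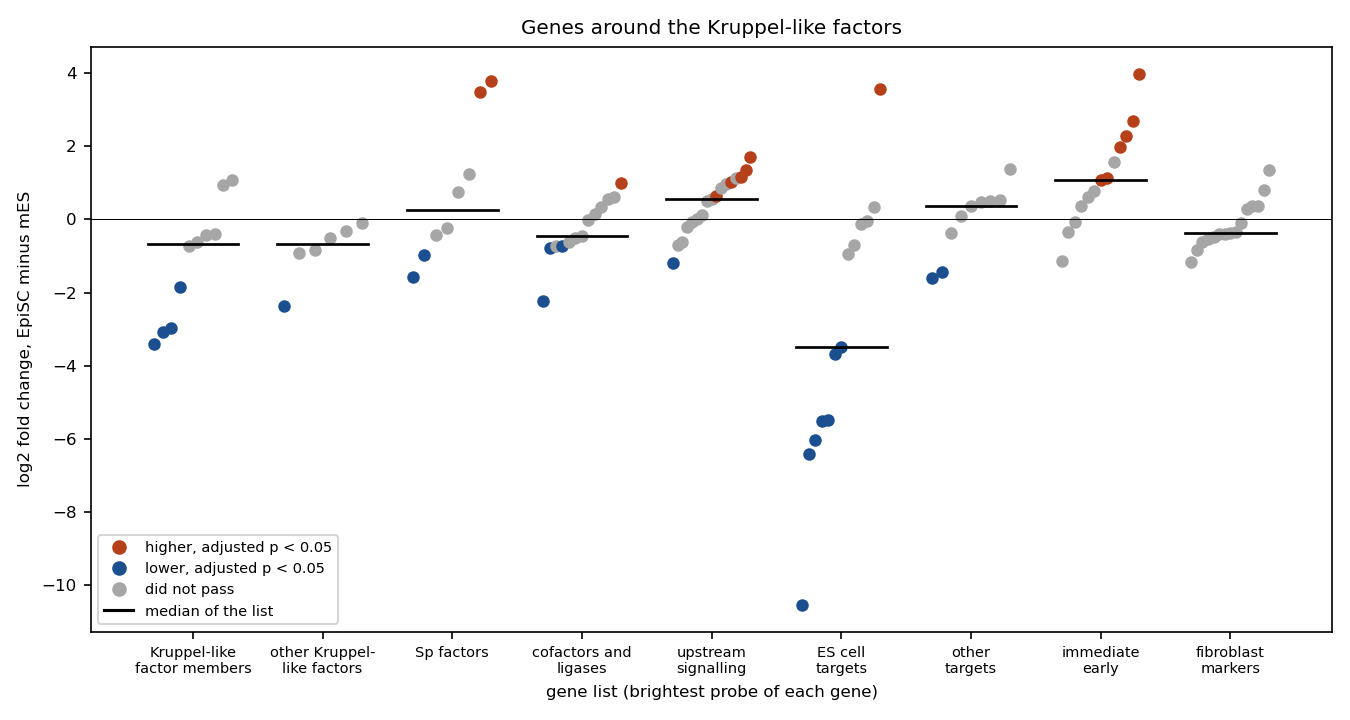
Log2 fold change, EpiSC minus mES, of each tested gene (point, brightest probe) in 9 lists, with the list's median as a black bar and genes past an adjusted p of 0.05 coloured by direction. ES cell targets reach from -10.55 to 3.56 and fibroblast markers hold no coloured point, and Klf2 and Klf7 appear among the members by their brightest probes, which did not pass.

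For the Klf2 probe that fell, Klf4 and the Klf5 probe that fell, the 3 genes with the most similar profile over the 6 arrays were sought by the root mean square (RMS) difference of centred log2 values, among 19081 probes of 13693 named genes. Nearest to Klf2 were Amhr2 (RMS difference 0.276), Sh3gl2 (0.277) and Fam3b (0.284). The genes nearest to Klf4 were Tgm1 (0.252), Gm11487 (0.256) and Tcstv3 (0.258). Klf5 was nearest to Ccdc113 (0.335), Icam1 (0.361) and Capsl (0.367). With 6 arrays and a large difference between 2 groups, many genes have similar profiles, and the distances carry no test.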

How the data were processed

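Per the labels' protocols, TRIzol total RNA of 3 mES and 3 EpiSC cultures was labelled with Cy3 for 1-colour Agilent arrays. The deposited scanner files hold spot intensity on a linear scale, made with Agilent Feature Extraction 9.1.3.1 per the file headers with no scaling across arrays. A series-wide table of intensity deposited by the authors differed from that signal by at most 0.00716 on the log2 scale, so it is uncentred and holds no ratio. Their probes' genome build was not given in the sources used here.

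From these values, control spots and outlier spots (12 to 24 per array) were left out, and 0 spots were saturated. Each array's 75th percentile was subtracted from its log2 signal, and spots of 1 probe were averaged. Probes were tested where all arrays of 1 group or the other were well above background and no group lacked more than 1 value. RefSeq accessions named 22951 probes (55.7%), and 18223 kept the file's name, which can be old. Probes were fitted with limma 3.58.1 in R 4.3.3 (lmFit, eBayes, no covariate), and two-sided p-values were adjusted (Benjamini-Hochberg) across the 29553 tested probes. The median standard error was 0.245, on 4 residual degrees of freedom, which count the EpiSC-7 passages as separate samples. With those passages averaged, 6169 probes passed, among them 8 member probes. The script was tested on simulated data.

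The members, lists and named genes were chosen with earlier results of these data known. All member probes are named, and of each list up to 3 genes past the threshold in each direction, by size of change. Further probes of list genes, the remaining endoderm markers and the ES cell targets set beside Klf4 were named after their values were seen. So were Sp1, Sp3, Sp4, Ctbp2, Sin3b, Wwp1, Stat3, Lifr, S1pr1 and Thbd. Alternatives covered scaling, background correction, filters, variance model, slide, position, the EpiSC-7 passages, the value table and each array left out. Replicate numbers are only names, in accession order.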

Additional observations from a re-analysis of the deposited data

How the results depend on the processing

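The direction and the call of member probes were kept in 339 of 369 alternative fits. A further 17 gained and 9 lost the call, and 4 turned the sign. All 4 were of Klf13 probe A_52_P281659, which did not pass in any fit: -0.13 with normexp background correction, -0.18 among arrays at position 4, -0.096 without mES replicate 3 and -0.0078 without EpiSC replicate 3, with a range of -0.096 to 0.21 over the arrays left out in turn. The number of member probes that passed was 7, and was 4 with 1 probe for each gene, which leaves out the Klf2 probe that fell, 15 with the slide as a random block and 4 when the 2 arrays with the least fibroblast signal were left out. It ranged from 5 to 8 when 1 array was left out. Over all probes the count was 7680, and was 12228 with no filter on dim probes, 16899 with the slide as a random block, 3960 among arrays at position 4 and 2068 when those 2 arrays were left out. With 1 array left out it ranged from 4056 to 7140, with 5082 without mES replicate 1, 4766 without mES replicate 2, 4419 without EpiSC replicate 1 and 4056 without EpiSC replicate 3. Arrays that shared a slide had an estimated correlation of -0.69, and as each slide held 1 group, this lowers the errors, so calls gained there are no evidence. The cause of the other shifts was not tested. No paired analysis was possible because the groups came from different lines and the labels state no pairing. Signal over background limits Klf5 probe A_52_P54463 and the untested Klf12 probe.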
